A study of Homo sapiens with 9 samples.

Results

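The genes described here encode the proteins of the cytosolic ribosome, chosen by symbol: RPL and RPS followed by a number (with an A or X where the name has one), RPLP0, RPLP1, RPLP2 and RPSA. This rule uses no measured value and found 77 of the 26475 gene symbols in the table, 46 for the large subunit (RPL and RPLP symbols) and 31 for the small subunit (RPS symbols and RPSA). RNA was sequenced from A375, a human melanoma cell line with a BRAF mutation, after 24 h with DMSO, the solvent control, with 5 µM TP-472 or with 10 µM TP-472, in 3 libraries per group. TP-472 inhibits the bromodomains of BRD9 and BRD7, which are subunits of SWI/SNF chromatin-remodelling complexes. All groups are the same cell line with no genetic change, so each comparison is of doses of 1 compound in 1 line.

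A ribosome is built of a small subunit, which binds the mRNA and reads its codons, and a large subunit, which joins the amino acids. The proteins are needed in matched amounts, and their mRNAs are among the most abundant in a growing cell. Most of them begin with a terminal oligopyrimidine (TOP) motif, a C at the first transcribed base followed by further pyrimidines, through which their translation is tied to mTOR signalling.

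The libraries held 42483091 to 51298130 estimated counts, and genes of ribosomal RNA took 8.20% to 19.9% of them. The labels and the paper describe oligo-dT selection while the series' design text describes depletion of ribosomal RNA, and which was used could not be settled. SOX10 at 391 to 417 CPM (counts scaled to library size with TMM factors; group means), VIM and AXL were well detected, the pigment genes MLANA and PMEL were low and TYR was at 0. The T cell marker CD3E was at 0, and PTPRC, EPCAM and ALB stayed below 1 CPM in every library, while PECAM1, VWF and KRT5 reached 2.12, 1.67 and 1.76 CPM at most. Library C1, the first of the 10 µM libraries, stood apart by transcript length. Against the other 2 libraries of its group, its log2 difference over 15196 genes had a Spearman correlation of −0.51 with transcript length, compared with −0.16 to 0.10 for the DMSO and 5 µM libraries. C2 and C3, each set against a pair that includes C1, had 0.43 and 0.40. Short transcripts were thus read relatively more often in C1, and ribosomal protein mRNAs are short. Counts of members called are therefore given with and without C1, while some genes outside the family are given with all libraries only. The part of length in any result was not tested beyond the values given. The design text calls the 3 libraries of a group biological replicates, so p-values measure the spread between such samples. In bulk RNA, fewer cells and less RNA per cell cannot be told apart.

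The sequences below show the transcription start of the members on which the results turn, together with 2 genes outside the family that are taken up further on. They come from RefSeq (GRCh38.p14) and run from 10 bases before the annotated start to 20 bases from it, with a pyrimidine run of the TOP kind in capitals. A run was counted where a C and at least 4 further pyrimidines (C or T) began within 5 bases of the start on the transcribed strand, since annotated starts can be off by a few bases. Runs were marked and measured from inside that window, so a longer stretch can be cut at its edge. In RPL29 further C bases lie directly upstream of the marked run.
RPS19: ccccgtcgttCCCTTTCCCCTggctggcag
RPS26: acataacctcgattttcttccgccatccgg
RPS21: ctagctgCTTCCTTTCTCTCTCgcgcgcgg
RPL3: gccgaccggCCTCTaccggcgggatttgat
RPL29: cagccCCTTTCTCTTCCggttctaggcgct
RPL10A: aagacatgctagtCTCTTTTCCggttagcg
RPL4: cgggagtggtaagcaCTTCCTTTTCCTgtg
RPS27: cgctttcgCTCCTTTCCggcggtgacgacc
RPS27L: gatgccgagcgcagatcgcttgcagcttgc
EEF1A1: cgtgaacgttCTTTTTCgcaacgggtttgc
The windows are RPS19 chr19:41860245-41860274 on the plus strand, RPS26 chr12:56041908-56041937 on the plus strand, RPS21 chr20:62387093-62387122 on the plus strand, RPL3 chr22:39319604-39319633 on the minus strand and RPL29 chr3:51995876-51995905 on the minus strand. The others are RPL10A chr6:35468391-35468420 on the plus strand, RPL4 chr15:66504836-66504865 on the minus strand, RPS27 chr1:153990752-153990781 on the plus strand, RPS27L chr15:63157458-63157487 on the minus strand and EEF1A1 chr6:73521013-73521042 on the minus strand. Of the 62 members with a RefSeq promoter entry, 50 (80.6%) held such a run, with a median length of 11 bases and a range of 5 to 22. The share was 21.1% over all 27305 promoters and 22.1% over 68 matched mitochondrial ribosomal protein genes. Of 16 other mRNAs reported to carry a TOP motif, taken up further on, 9 had an entry and 6 of those (66.7%) held a run. RPS26 and RPS27L had no such run beginning within 5 bases of the annotated start. In RPS26 a pyrimidine stretch does begin within 5 bases, but with a T, and its first C lies farther downstream. RPL3, which fell the most at 10 µM, had a run of 5 bases, and RPS19, which rose the most, had one of 11. Gains and losses were thus both seen among members with such a run.

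All 77 members passed the filter on low counts. Levels can be compared between genes only per length, and over the coding length the highest DMSO level was that of RPL41, at 19808 ± 1814 CPM per coding kilobase (SD, n = 3). RPL41 encodes the smallest ribosomal protein, from a coding sequence of 75 nt, and reads from its untranslated parts weigh more in this measure than they do in other members. RPL13A at 3437 ± 176 and RPS2 at 2983 ± 46.3 CPM per coding kilobase followed, and their difference exceeded the SD of both. The lowest were RPS29 at 629.7 ± 62.5, RPL5 at 576 ± 10.3 and RPS26 at 514 ± 17.0. The intervals of RPS29 and RPL5 overlapped. Members have many processed pseudogenes, and 23 of the 77 had a count that was not whole (to within 1e-09) in some library, as RSEM gives where reads are divided between copies. RPS26, RPLP0, RPL10, RPL13A, RPL32 and RPL39 were among them in all 9 libraries, and their values are uncertain to that degree. RPS19, RPL3 and RPL10A had whole counts throughout. Symbols of 31 ribosomal protein pseudogenes together held 0.290% to 0.383% of the members' own count.

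The family as a whole took a slightly smaller share of the RNA after TP-472 in 5 of the 6 treated libraries, and a much larger share in C1. In DMSO the members summed to 6.47%, 6.43% and 6.17% of all counts. At 5 µM they summed to 5.85%, 6.03% and 6.14%, and at 10 µM to 5.71% and 5.39% in libraries C2 and C3 and to 9.10% in C1. The 5 µM libraries all lay below the DMSO libraries, by 0.352 percentage points on average (exact permutation test, two-sided, p = 0.1, which is the smallest that 3 against 3 libraries can give). At 10 µM the difference was 0.377 points upward with C1 (exact permutation p = 1) and 0.806 points downward without it (exact permutation p = 0.2, the smallest for 2 against 3). The 5 treated libraries other than C1 lay 0.533 points below DMSO (exact permutation p = 0.0357, the smallest for 5 against 3), and with C1 the 6 lay 0.0125 points above it (exact permutation p = 0.690). Over the 16 such tests without C1, the Benjamini-Hochberg adjusted value of the former was 0.2. Genes of ribosomal RNA took 10.6% to 16.6% at 5 µM and 14.3% and 19.9% in C2 and C3, against 8.79% to 10.9% in DMSO, and so enter this share. In C1 they took 8.20%, the lowest of the 9 libraries. With those genes left out of the total the members held 7.26%, 7.05% and 6.91% in DMSO, 7.02%, 6.74% and 6.94% at 5 µM, 6.67% and 6.73% in C2 and C3 and 9.91% in C1. On that total the 5 libraries lay 0.252 points below DMSO and the 5 µM and DMSO libraries overlapped (exact permutation p = 0.143 for the 5 against 3).

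**Figure D1:**
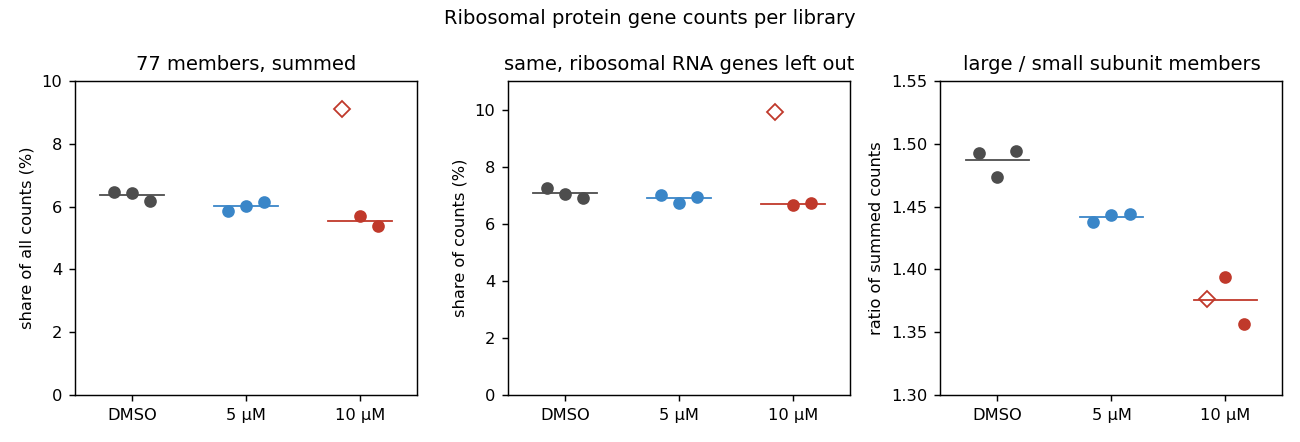
Summed share of the 77 members in percent of all counts (left), in percent of the counts without ribosomal RNA genes (middle), and the ratio of large to small subunit counts (right, axis not from 0), one point per library in each group. Lines are group means without C1, which is the open diamond, at 9.10%, 9.91% and 1.38.

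The balance of the subunits moved the same way in every treated library, C1 included. Large subunit members held 1.49, 1.47 and 1.49 times the counts of small subunit members in DMSO, and 1.44 times in each of the 5 µM libraries. At 10 µM the ratio was 1.38 in C1, 1.39 in C2 and 1.36 in C3. All 6 treated libraries lay below all 3 DMSO libraries, by 0.08 on the log2 scale on average (exact permutation test, two-sided, p = 0.0238, the smallest that 6 against 3 can give). Adjusted over the 16 tests of shares and ratios this was 0.267, and it missed 0.05 also when any 1 DMSO library was left out, where the test cannot go below that. Without C1 the difference was −0.07 (exact permutation p = 0.0357). The 10 µM libraries lay below the 5 µM libraries by 0.07 (exact permutation p = 0.1). The median coding length was 474 nt for large and 453 nt for small subunit members, and the order was the same inside each length class. Among the 26 shortest members the ratio was 1.65 to 1.72 in DMSO and 1.57 to 1.64 after TP-472. Among the 25 of middle length it was 1.32 to 1.35 and 1.19 to 1.26. For the 26 longest it was 1.498 to 1.520 and 1.37 to 1.49. These classes do not match the lengths of the subunits. The longest large subunit member, RPL4, has 1281 nt and the longest small subunit member, RPSA, has 885 nt. The part of length in the ratio was not tested.

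Single members changed little, and most of the calls depended on whether C1 was in the fit, those without it being mostly downward. At 5 µM, edgeR's quasi-likelihood test on 9 libraries called 0 of the 77 members up and 0 down at a Benjamini-Hochberg adjusted p under 0.05, where it called 4.4% of all genes up and 5.81% down. DESeq2 and limma-voom, on the same 9 libraries, also called 0, and 1 member, RPL4, had an unadjusted p under 0.05. Without C1, 5 members rose and 29 fell at 5 µM, against 16.5% and 17.6% of all genes. C1 is in neither group of this comparison and enters it through the spread that all 9 libraries share in the fit. For RPL4 the log2 fold change at 5 µM was −0.243 ± 0.106 (SE) with C1 in the fit and −0.244 ± 0.0236 without it. The 0 calls are thus not a measure of the spread among the DMSO and 5 µM libraries alone. At 10 µM 3 members rose and 1 fell with all libraries, against 16.4% and 18.0% of all genes. Without C1, 6 rose and 46 fell, against 23.0% and 25.8%. The median log2 fold change of the members was −0.05 at 5 µM with or without C1, and 0.13 at 10 µM with C1 and −0.13 without. Changes of at least 1.5-fold at 10 µM were few, namely RPS19 and RPS26 upward with all libraries (8.57% of all genes up and 10.5% down) and RPL3 downward without C1 (8.17% and 11.0%). Libraries of 5 µM and DMSO did not overlap for 2 members above and 32 below, where 23.7% and 25.0% of all genes did so. At 10 µM this held for 7 above and 1 below with C1 (23.4% and 26.0%) and for 7 above and 46 below without it (32.8% and 34.6%). Both doses share the DMSO libraries, so their counts are not independent.

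**Figure D2:**
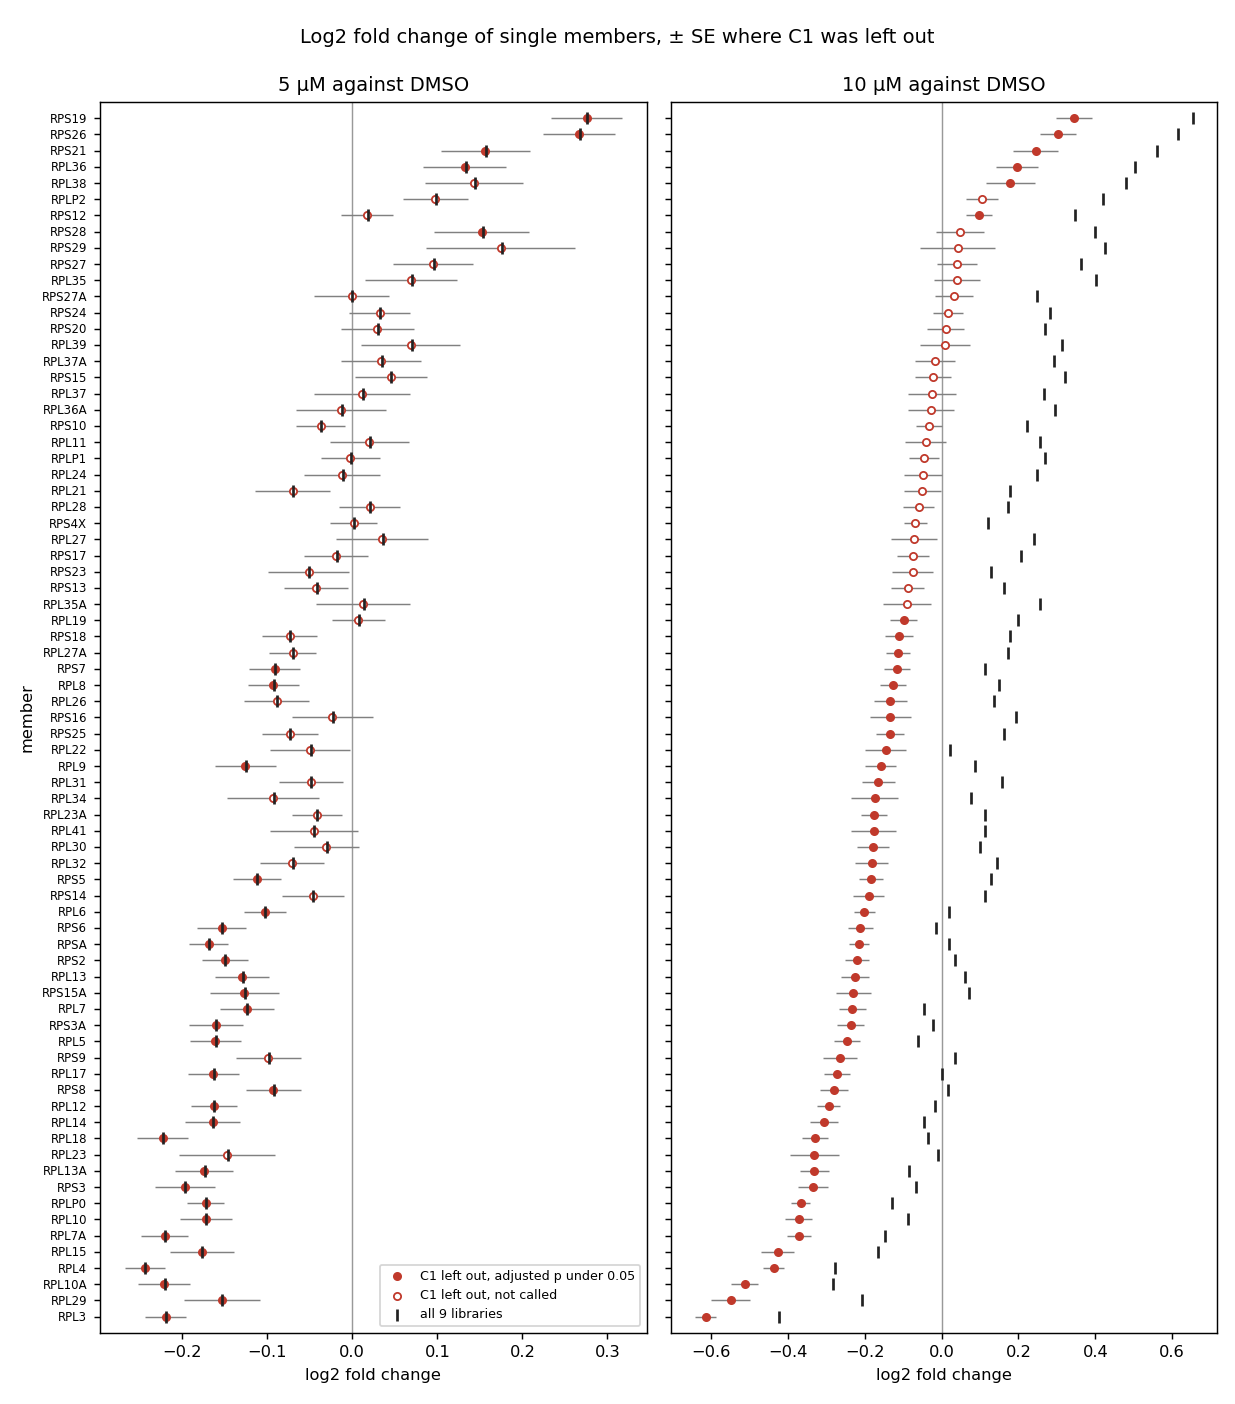
Log2 fold change against DMSO (horizontal axis) of 75 of the 77 members at 5 µM (left) and 10 µM (right), ordered by the 10 µM value without C1. Circles leave C1 out, with ± SE and filled where the edgeR adjusted p was under 0.05, and ticks are the fit of all 9 libraries, which at 10 µM lie to the right of the circle for every member drawn.

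The largest gain was that of RPS19 (chromosome 19, 41859918 to 41872926, plus strand, GRCh38), a protein of the small subunit head that is needed for its maturation and is mutated in Diamond-Blackfan anaemia. RPS19 stood at 719.8, 709.7 and 669 CPM in DMSO, 874, 839 and 828 CPM at 5 µM, 834 and 946 CPM in C2 and C3 and 1521 CPM in C1. All 6 treated libraries were above all DMSO libraries. Its log2 fold change at 10 µM was 0.65 ± 0.18 (SE) with all libraries (edgeR quasi-likelihood test, Benjamini-Hochberg adjusted p = 0.0197) and 0.34 ± 0.05 without C1 (edgeR quasi-likelihood test, Benjamini-Hochberg adjusted p = 1.43e-05). At 5 µM it was 0.28 ± 0.18 with all libraries, not called, and 0.28 ± 0.04 without C1 (edgeR quasi-likelihood test, Benjamini-Hochberg adjusted p = 9.73e-05). RPS26, which lies where the mRNA leaves the small subunit, behaved alike. It stood at 184, 175 and 173 CPM in DMSO, 216, 204 and 220.3 at 5 µM, 228 and 211 in C2 and C3 and 377 in C1, with no treated library as low as any DMSO library. At 10 µM its log2 fold change was 0.61 ± 0.18 with all libraries (edgeR quasi-likelihood test, Benjamini-Hochberg adjusted p = 0.0263) and 0.30 ± 0.05 without C1 (edgeR quasi-likelihood test, Benjamini-Hochberg adjusted p = 6.09e-05). These were the members whose libraries lay above DMSO at both doses, 2 of 77, where 14.9% of all genes did so. RPS21, a small protein of the small subunit, had 416, 399.8 and 358 CPM in DMSO, 463, 410.4 and 436 at 5 µM, 446 and 482 in C2 and C3 and 800.4 in C1, and the lowest 5 µM library overlapped DMSO. It rose at 10 µM by 0.56 with all libraries (edgeR quasi-likelihood test, Benjamini-Hochberg adjusted p = 0.0433) and by 0.24 without C1 (edgeR quasi-likelihood test, Benjamini-Hochberg adjusted p = 0.00258). The other 3 members that rose at 10 µM without C1 were RPL36 (log2 fold change 0.20), RPL38 (0.18) and RPS12 (0.10, named after its value was seen), none of which was called with all libraries.

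The largest loss was that of RPL3 (chromosome 22, 39312882 to 39320389, minus strand, GRCh38), which reaches towards the peptidyl transferase centre, the site where peptide bonds are made. RPL3 stood at 1938, 1911 and 1861 CPM in DMSO, 1632, 1662 and 1613 CPM at 5 µM, 1257 and 1236 CPM in C2 and C3 and 1768 CPM in C1. Every treated library was below every DMSO library, C1 included, and it was the only member of which this was true (1 of 77, against 18.3% of all genes). At 10 µM the log2 fold change was −0.42 ± 0.12 with all libraries (edgeR quasi-likelihood test, Benjamini-Hochberg adjusted p = 0.0224) and −0.61 ± 0.03 without C1 (edgeR quasi-likelihood test, Benjamini-Hochberg adjusted p = 5.17e-11). At 5 µM without C1 it was −0.22 ± 0.02 (edgeR quasi-likelihood test, Benjamini-Hochberg adjusted p = 4.07e-06). With C1 left out, 31 members lay below DMSO in all 5 treated libraries, against 21.7% of all genes.

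The next losses at 10 µM were in large subunit members too, and each of these 4 was called only with C1 left out. RPL29 had 858, 803 and 844 CPM in DMSO, 746, 745 and 763 at 5 µM, 617 and 527 in C2 and C3 and 1025 in C1. C1 was the highest of the 9 libraries and C3 the lowest, and the fall without C1 was −0.55 ± 0.05 (edgeR quasi-likelihood test, Benjamini-Hochberg adjusted p = 2.68e-07). RPL10A, the protein of the mobile stalk by which the spent tRNA leaves, had 540.3, 528 and 522 CPM in DMSO, 464, 449.8 and 451 at 5 µM, 361 and 383 in C2 and C3 and 562 in C1. Its fall without C1 was −0.51 ± 0.04 (edgeR quasi-likelihood test, Benjamini-Hochberg adjusted p = 8.99e-09). RPL4, a loop of which lines the tunnel for the new peptide, had 1449.5, 1460.2 and 1471 CPM in DMSO, 1255, 1213 and 1233 at 5 µM, 1087 and 1074 in C2 and C3 and 1454 in C1, which lay among the DMSO values. RPL4 fell by 0.44 on the log2 scale at 10 µM and by 0.24 at 5 µM without C1, the latter being the largest fall at that dose (edgeR quasi-likelihood test, Benjamini-Hochberg adjusted p = 1.13e-06). RPL15 fell by 0.43 at 10 µM (edgeR quasi-likelihood test, Benjamini-Hochberg adjusted p = 6.02e-07). With all libraries, the values of these members at 10 µM were −0.21, −0.28, −0.28 and −0.16.

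Members were also read by their place in the ribosome, as counts without C1 at 10 µM beside the whole family's 6 up and 46 down of 77 and the 23.0% up and 25.8% down of all genes. Of the 4 stalk proteins, which recruit the translation GTPases, RPLP0 (−0.37) and RPL12 (−0.29) fell while RPLP1 (−0.05) and RPLP2 (0.11) were not called. RPL5 and RPL11 form a particle with the 5S ribosomal RNA that can also bind MDM2, the p53 ubiquitin ligase. RPL5 had 522, 504 and 513 CPM in DMSO, 456, 455 and 466 at 5 µM, 443 and 423 in C2 and C3 and 609 in C1, and fell by 0.25 without C1 (edgeR quasi-likelihood test, Benjamini-Hochberg adjusted p = 1.75e-05). For RPL11 the log2 fold change was −0.04 ± 0.05 (edgeR quasi-likelihood test, Benjamini-Hochberg adjusted p = 0.551), and its DMSO libraries spread from 799 to 921 CPM. Of the 9 proteins that line or ring the peptide exit tunnel, 7 fell and 0 rose, RPL39 (0.01) and RPL35 (0.04, named after its value was seen) being those not called. Of 14 proteins of the small subunit head, 2 rose and 5 fell, among the latter RPS3 (−0.34), which guards the entry of the mRNA, and RPS16 (−0.13). Of 15 genes mutated in Diamond-Blackfan anaemia, 2 rose (RPS19 and RPS26), 4 fell and 9 were not called. RPS6, the substrate of S6 kinase, fell by 0.21 and RPSA by 0.22. RPS14 fell by 0.19, RPL10, a protein that joins late in large subunit assembly, by 0.37, and RPS4X at −0.07 and RPS27A, which is made as a fusion with ubiquitin, at 0.03 were not called. With all 9 libraries, RPS19 and RPS26 were the members of these groups that were called.

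Within the family the change went with coding length and also with the level in DMSO. Longer members tended to have the lower log2 change in every treated library, C1 included, where the median member lay 0.56 above its DMSO mean. Across the 77 members the Spearman correlation of the log2 change from the DMSO mean with coding length was −0.81, −0.52 and −0.80 in the 5 µM libraries, −0.78 in C1 and −0.67 and −0.66 in C2 and C3. These points share their library, and in DMSO libraries set against the other 2 the correlation was −0.55, −0.15 and 0.62, so its sign also varied among controls. With the members' mean log2 CPM in DMSO, the same changes correlated at −0.63, −0.38 and −0.66 in the 5 µM libraries. In C1 this was −0.63, in C2 and C3 −0.60 and −0.55, and in the DMSO libraries −0.34, −0.06 and 0.40. Length and level were not told apart. The slopes with coding length were steeper than in any DMSO library in all 6 treated libraries, in 1 of them (the second at 5 µM) by little. Per doubling of coding length the log2 change moved by −0.15, −0.06 and −0.13 in the 5 µM libraries, by −0.25 in C1 and by −0.15 and −0.16 in C2 and C3, against −0.05, −0.01 and 0.06 in DMSO. Of the 26 longest members (576 to 1281 nt), 25 fell and 0 rose at 10 µM without C1, and 23 fell at 5 µM, where 25.8% and 17.6% of all genes fell. Of the 26 shortest (75 to 405 nt), 5 rose and 8 fell at 10 µM and 4 rose and 1 fell at 5 µM. With all libraries, 1 of the longest fell and 2 of the shortest rose at 10 µM, with medians of −0.02 and 0.29, and 0 of either were called at 5 µM. RPS19 lay farthest above the line of change against length without C1, by 0.47 at 10 µM and 0.32 at 5 µM on the log2 scale, followed by RPS26 by 0.37 and 0.27. RPL41 lay farthest below it, by −0.45 at 10 µM, then RPL29 by −0.40. The trend with transcript length over all genes was weaker without C1. The 1415 tested genes with transcripts under 1000 nt had a median log2 fold change of 0.12 at 10 µM and those of 4000 nt or more had −0.04, against 0.30 and −0.16 with C1. The 3421 genes of 1000 to 2000 nt, a class into which some members fall by annotated transcript, had a median of 0.02 without C1. The median of all members was −0.13 at 10 µM without C1, and that of the 26 shortest by coding length was −0.004. Whether members differ from other transcripts of their length was not tested. With the trend in length and GC content removed from each library and C1 left out, an alternative chosen after seeing the data, 4 members were up and 59 down at 10 µM. The share of all genes called in that fit is not given, so these counts cannot be set against it.

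**Figure D3:**
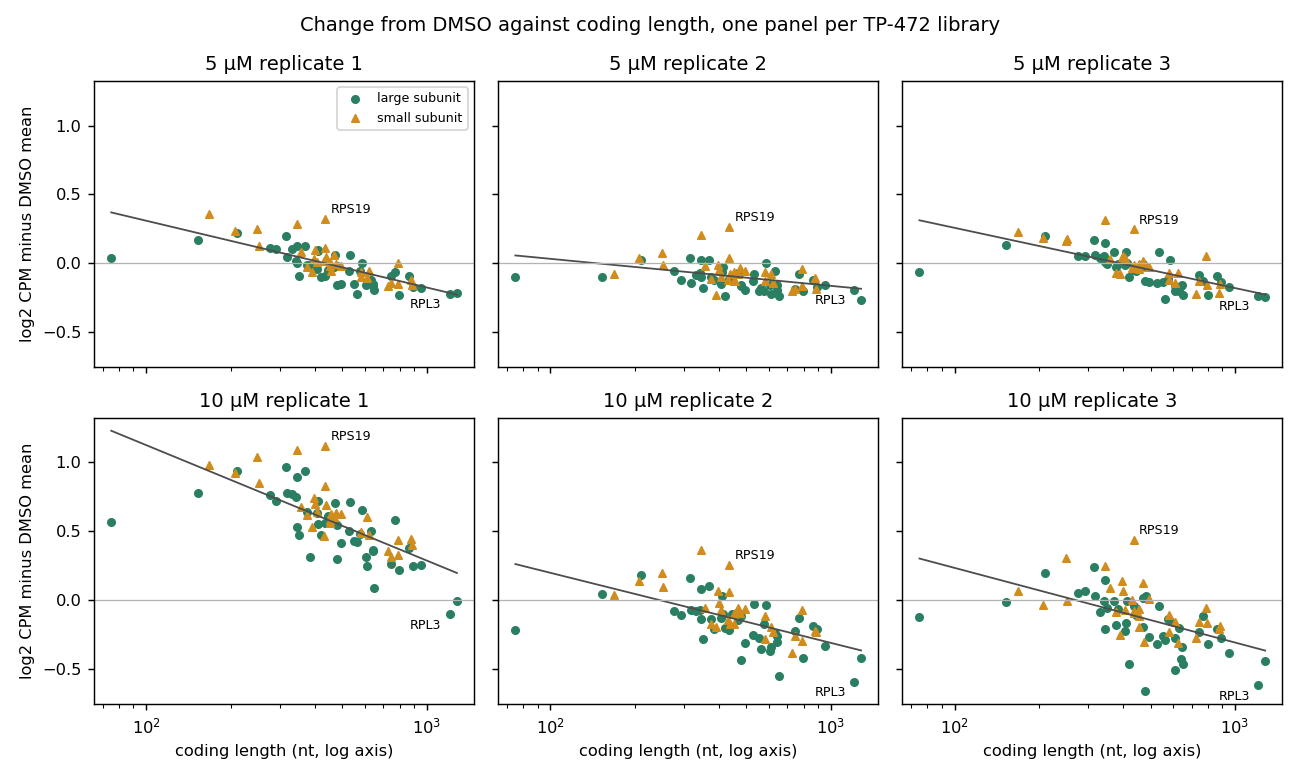
Log2 CPM of each member minus its DMSO mean (vertical axis) against coding length (log axis) in each of the 6 TP-472 libraries, with a straight-line fit. The slope is negative in all 6 panels, 10 µM replicate 1 (C1) is raised as a whole, and RPS19 lies above the line in each.

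A share of the family's own counts cancels the rise of the whole family in C1, but not the trend with coding length, and has no counterpart over all genes. Of the 77 members, 21 had a larger share than any DMSO library in all 6 treated libraries, 12 had a smaller one and 44 overlapped. RPS19 made up 1.10, 1.12 and 1.08% of the family in DMSO, 1.43, 1.43 and 1.38% at 5 µM and 1.70, 1.5001 and 1.68% at 10 µM. RPS26 went from 0.28, 0.276 and 0.279% to 0.354, 0.348 and 0.366% and 0.421, 0.41 and 0.374%. In both, the 3 groups did not overlap. RPL3 made up 2.95, 3.01 and 3.00% in DMSO, 2.67, 2.83 and 2.68% at 5 µM and 1.97, 2.26 and 2.19% at 10 µM, and RPL10A 0.823, 0.831 and 0.842%, 0.759, 0.767 and 0.749% and 0.627, 0.65 and 0.68%, again without overlap. Of the 12 with a smaller share, 11 encode large subunit proteins (RPL3, RPL4, RPL7A, RPL10, RPL10A, RPL12, RPL13A, RPL14, RPL15, RPL17 and RPL18) and the other is RPS3. The 21 with a larger share were 9 large and 12 small subunit members. Coding lengths ran from 495 nt (RPL12) to 1281 nt (RPL4) among the 12, all above the family median of 456 nt. Among the 21 they ran from 207 nt (RPS28) to 588 nt (RPL19). A share of the family falls for one member when others rise, so these values describe composition only, and C1 had the most extreme share at 10 µM for RPS19, RPS26, RPL3 and RPL10A.

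**Figure D4:**
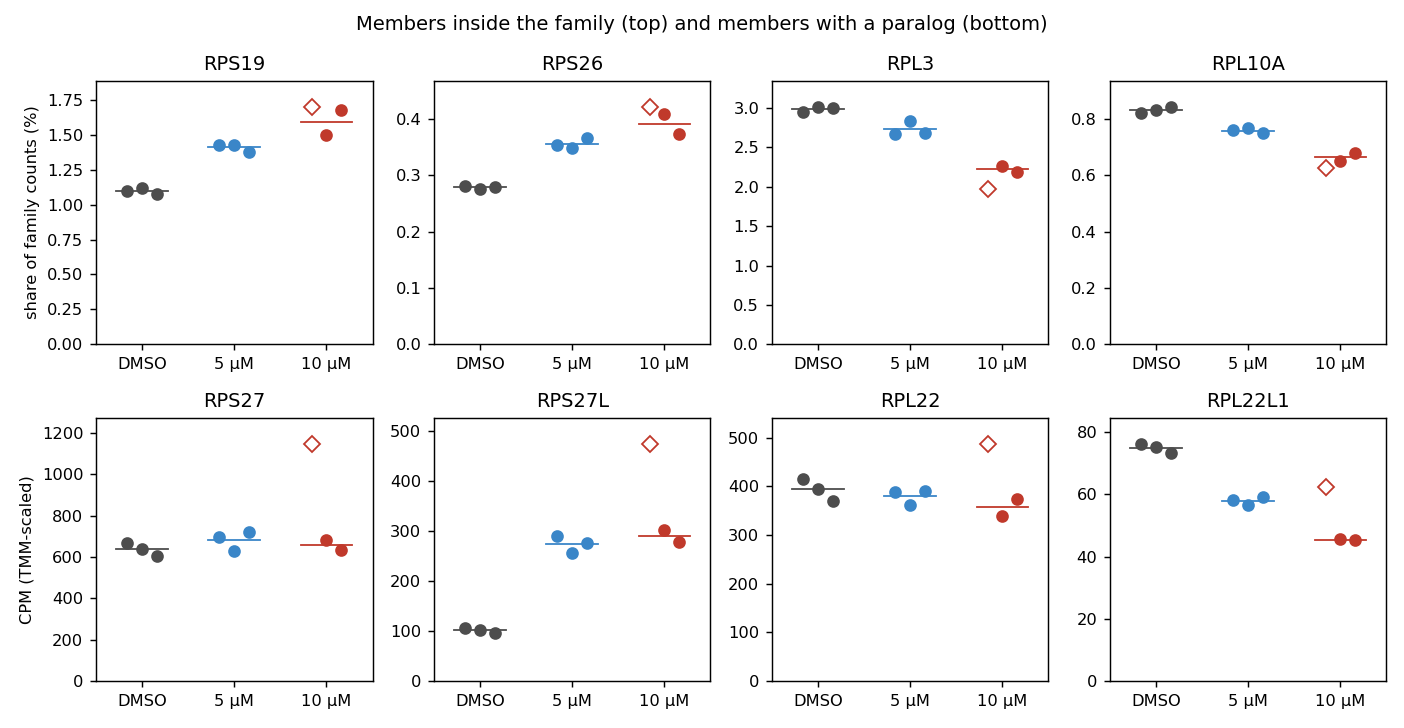
Top, share of the family's counts (%) held by RPS19, RPS26, RPL3 and RPL10A in each library. Bottom, TMM-scaled CPM of RPS27 and RPL22 beside their paralogs RPS27L and RPL22L1, with lines for group means without C1 and an open diamond for C1. RPS27L is 95.4 to 105.8 CPM in DMSO and at least 256 CPM after TP-472, while RPS27 overlaps DMSO outside C1.

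Between the doses, members were called downward with C1 left out, and none was called with it. In 10 µM against 5 µM, edgeR's quasi-likelihood test on all libraries called 0 members up and 0 down (2.87% and 5.53% of all genes), as did DESeq2 and limma-voom, and 0 had an unadjusted p under 0.05. Without C1 it called 0 up and 25 down (8.8% and 15.4% of all genes). RPL29 at −0.40 ± 0.05 (edgeR quasi-likelihood test, Benjamini-Hochberg adjusted p = 3.5e-05) and RPL3 at −0.39 ± 0.03 (edgeR quasi-likelihood test, Benjamini-Hochberg adjusted p = 5.36e-08) had the lowest values. RPS19 did not pass, at 0.07 ± 0.05 (edgeR quasi-likelihood test, Benjamini-Hochberg adjusted p = 0.313).

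Relatives of the family outside the rule did not all move with it. RPS27L, a paralog of RPS27 and a known target of p53, had 106, 102 and 95.4 CPM in DMSO, 289, 256 and 277 at 5 µM, 302 and 277 in C2 and C3 and 474 in C1, so that no treated library came near DMSO. It rose by 1.44 ± 0.17 on the log2 scale at 5 µM (edgeR quasi-likelihood test, Benjamini-Hochberg adjusted p = 0.000889) and by 1.80 ± 0.18 at 10 µM (edgeR quasi-likelihood test, Benjamini-Hochberg adjusted p = 5.45e-05), and by 1.52 without C1. RPS27 itself, with 669, 641 and 603 CPM in DMSO and 679.9 and 634 in C2 and C3, was not called, at 0.04 ± 0.05 without C1. RPL22L1, a paralog of RPL22, went the other way, from 76.2, 75.3 and 73.2 CPM in DMSO to 58.2, 56.6 and 59.2 at 5 µM, 45.7 and 45.2 in C2 and C3 and 62.5 in C1. Its log2 fold change at 10 µM was −0.55 ± 0.12 (edgeR quasi-likelihood test, Benjamini-Hochberg adjusted p = 0.00548). RPL22 had 415, 395 and 371 CPM in DMSO, 339 and 374.6 in C2 and C3 and 487 in C1, and its change without C1 was −0.15 ± 0.05 (edgeR quasi-likelihood test, Benjamini-Hochberg adjusted p = 0.0311). RPL26L1 rose at 10 µM, by 0.81 with all libraries (edgeR quasi-likelihood test, Benjamini-Hochberg adjusted p = 0.00228) and 0.58 without C1. MDM2, also a p53 target, rose from 100.1, 101 and 106 CPM in DMSO to 342, 332 and 342 at 5 µM and 600.0, 682 and 726 at 10 µM, a log2 fold change of 2.71 ± 0.08 at 10 µM (edgeR quasi-likelihood test, Benjamini-Hochberg adjusted p = 4.81e-08).

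FAU, which encodes a ribosomal protein fused to a ubiquitin-like protein, was called up at 10 µM without C1, at 0.15, and not with all libraries, at 0.46. Of 16 other mRNAs reported to carry a TOP motif, 8 fell and 0 rose at 10 µM with all libraries (median −0.34), where 1 of the 77 members and 18.0% of all genes fell. Without C1 15 fell and 0 rose (median −0.42), where 46 members and 25.8% of all genes fell. They include, with all libraries, EIF4B, an initiation factor that helps unwind mRNA, at −0.73 ± 0.07 (edgeR quasi-likelihood test, Benjamini-Hochberg adjusted p = 3.14e-05), and HNRNPA1, a splicing factor, at −0.68 ± 0.07 (edgeR quasi-likelihood test, Benjamini-Hochberg adjusted p = 7.91e-05). The elongation factor EEF2 was at −0.35, PABPC1, which binds the poly(A) tail, at −0.50, EEF1A1 at −0.15 and TPT1 at 0.08, the last 2 not called with all libraries. Without C1, EEF1A1 was called down, at −0.23 ± 0.02 (edgeR quasi-likelihood test, Benjamini-Hochberg adjusted p = 2.47e-07). MYC, a transcription factor that acts on ribosomal protein genes, was not called with all libraries, at 0.29 ± 0.14 (edgeR quasi-likelihood test, Benjamini-Hochberg adjusted p = 0.123). Its value without C1 is not given here. Of the 77 mitochondrial ribosomal protein genes, which serve the separate ribosome of that organelle, 29 rose, 1 fell and 47 were not called at 10 µM with all libraries (median 0.36, with 16.4% of all genes up and 18.0% down). Without C1 35 rose, 4 fell and 38 were not called (median 0.16, with 23.0% and 25.8%), those that rose including MRPL46 (0.59) and MRPS23 (0.37). Of 22 ribosomal protein pseudogene symbols tested at 10 µM with all libraries, 5 were called up and 0 down, and of 23 tested without C1 5 were up and 2 down, to be read beside the shares of all genes just given. With all libraries the highest among them were RPSAP52 at 2.03 and RPL13AP20 at 2.04, both at or below 27.8 CPM. Both share sequence with their parent genes.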

How the data were processed

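The authors deposited 1 table of estimated counts per gene symbol, made with RSEM, as 1 unscaled column for each library. The submitters' processing notes list RSEM 1.2.15, Bowtie2 2.1.0 and genome build hg38, and their annotation, filters and use of strand in counting were not given in the sources used here. By the labels, library construction kept the strand. Each value was then rounded.

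The test was that of edgeR 4.0.16, run in R 4.3.3 (TMM factors 0.957 to 1.03, filterByExpr, quasi-likelihood F test, Benjamini-Hochberg adjustment over all genes tested) in 1 model of 9 libraries with no covariate, 16417 genes passing the filter, and again without C1, 16745 genes passing. A gene was called at an adjusted p under 0.05, with a second count at a fold change of at least 1.5. SE was taken from F, as the absolute log2 fold change over the root of F. CPM use TMM-scaled library sizes. Shares are the members' summed counts over the library total, compared with exact permutation tests. DESeq2 1.42.0 and limma-voom (limma 3.58.1) were alternatives, and tables were made with scipy 1.17.1, numpy 2.4.6 and pandas 2.3.3 under Python 3.11.15. The code was tested on simulated data. Gene positions, coding and transcript lengths are from GENCODE 29, 1 transcript per gene. At 42483091 to 51298130 counts per library, counting error was not compared with the spread between libraries. That spread was small for some members, such as RPSA at 1847 ± 8.15 CPM in DMSO (SD, n = 3).

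Members and lists were chosen with earlier results of these data known. Lists other than those set by symbol were written from general knowledge. Members were named by role, as the 5 largest and 5 smallest log2 fold changes at each dose, as calls of at least 1.5-fold, as the 3 highest and lowest by length (coding length was used in place of transcript length, which is uncertain for some members), or as the 10 whose call or direction moved most without C1. Genes outside the family were a fixed list and the 2 with the smallest p in each list. RACK1 is listed under an older symbol and is counted there. RPS4Y1 was not used. The values of a few genes, members among them, are not reported here singly but enter every count and sum.

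Replicate numbers did not pair the libraries. Correlations of same-numbered libraries' deviations from their group means ran from −0.036 to 0.041, and no label ties a number to a shared culture.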

Additional observations from a re-analysis of the deposited data

How the results depend on the processing

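Calls on members depend mainly on C1 (10 µM replicate 1). Shares of all genes called are given above only for the fits with all libraries and without C1. Counts from the other fits show how far calls on members moved, and not how members compare with other genes. Leaving out each library in turn moved the members called up from 0 to between 0 and 5 at 5 µM, from 3 to between 0 (each DMSO library) and 8 at 10 µM, and left 10 µM against 5 µM at 0. It moved the members called down to between 0 and 29, between 0 and 46, and between 0 and 25, the upper values being those without C1. Left out 1 at a time, 10 µM replicates 2 and 3 gave 8 and 6 up and 0 down at 10 µM. Among log2 fold changes at 10 µM that turned without C1, values ranged from −0.15 to 0.13 for RPL22, −0.16 to 0.30 for RPL31, −0.18 to 0.30 for RPL32, −0.18 to 0.25 for RPL41, −0.19 to 0.25 for RPS14, −0.13 to 0.35 for RPS16, −0.22 to 0.15 for RPS2 and −0.22 to 0.13 for RPSA. The change in summed share ranged from −0.806 to 1.05 percentage points at 10 µM, from −0.455 to 1.40 in 10 µM against 5 µM and from −0.533 to 0.209 for both doses, which turned (−0.0794) also without DMSO replicate 3. For large subunit members it ranged from −0.586 to 0.498 at 10 µM and from −0.332 to 0.753 between doses, and for small subunit members from −0.220 to 0.552 and from −0.123 to 0.649. The log2 ratio of the subunits for both doses ranged from −0.0855 to −0.0675, and its exact test (p above 0.05) was lost without any 1 DMSO library. With TMM-scaled library sizes as denominator the share for both doses was −0.0170 points in place of 0.0125.

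With the replicate block in the fit, 5 members were up at 10 µM in place of 3, and 1 was down. The numbers do not pair the libraries and not every library correlated best with its own number. The block together with the length and GC trend removed gave 3 down at 5 µM (median −0.11), 6 up and 9 down at 10 µM and 2 up and 1 down between doses. The block changed no other count of members. Removing the trend alone gave 1 down at 5 µM (median −0.11), 7 down at 10 µM, where the median became −0.02 in place of 0.13, and 1 down between doses. DESeq2 called 5 up at 10 µM. A fit of only the 2 groups compared called 6 up and 32 down at 5 µM, where C1 takes no part, and 0 up and 0 down at 10 µM. At an adjusted p under 0.01, 0 were up and 0 down at 10 µM, and with a fold of at least 1.5 added 0 were down.

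Removing the length and GC trend with C1 left out, chosen after seeing the data, gave 4 up and 41 down at 5 µM (median −0.11), 59 down at 10 µM (median −0.21) and 3 up and 36 down between doses (median −0.12). Log2 fold changes at 10 µM that turned in it include −0.16 for RPL11, −0.23 for RPL22, −0.23 for RPL31, −0.20 for RPL32, −0.19 for RPL35A, −0.19 for RPL36A, −0.15 for RPL39, −0.33 for RPL41, −0.16 for RPLP1, −0.30 for RPS14, −0.19 for RPS16, −0.16 for RPS2, −0.13 for RPS27, −0.17 for RPS4X and −0.32 for RPSA. The cause of these differences was not tested. The other scalings (RLE, upper quartile, TMM without the members), filters, and the addition of pseudogene counts or removal of ribosomal RNA genes kept each count of members within 1.5 times. A denominator without mitochondrial-genome genes was not run, as the table used here has no such symbols. Two-sided exact tests of 3 against 3 libraries cannot go below 0.1.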
